A study of Nannospalax ehrenbergi and Mus musculus with 25 samples.

Results

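The endothelial and angiopoietin genes are 10 genes of the vessel wall and its growth signals. They form a list fixed by gene name, drawn up with earlier results of these data known: *Angpt1*, *Angpt2*, *Tek*, *Tie1*, *Kdr*, *Flt1*, *Eng*, *Pecam1*, *Cdh5* and *Vwf*. All 10 were found among the 27988 genes of the *Spalax* table and among the 47593 genes of the mouse table. They were followed by RNA-seq in 25 libraries of bulk neck tissue, 16 from the blind mole rat *Spalax* and 9 from the mouse. The comparisons ask how far vessel genes differ between tumor and muscle, and whether muscle itself differs between untreated and carcinogen-treated animals.

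*Spalax* is a subterranean rodent that lives long and rarely develops tumors. Treated animals received 1 injection under the skin of the neck with 3MCA, a carcinogenic hydrocarbon. The dose was 1 mg in 500 µl for *Spalax* and 200 µg in 200 µl for mice. Muscle of untreated *Spalax* gave 4 control libraries, all from females. Injected *Spalax* without a tumor, called tolerant, gave 4 libraries of the injected side, 2 of them taken after 18 months and 2 after 30 months, from 3 males and 1 female. Granuloma, a benign proliferation of spindle cells, was found in 2 *Spalax* females (animals 600 and 976, after 14 and 16 months). Fibrosarcoma, a malignant tumor of fibroblast type, was found in 2 *Spalax* (female 2240 after 18 months and male 2230 after 30 months). Each of these 4 animals gave 1 library of the tumor on the injected side (IS) and 1 of muscle on the uninjected side (UIS). The mice were males of the C57BL/6 strain aged 3 to 4 months. They comprise 3 untreated controls and 3 animals with fibrosarcoma, each with an IS and a UIS library (mice 1019, 1023 and 512, after 14, 12 and 11 weeks). *Spalax* were caught in the wild, and the treated ones were estimated to range in age from 2 years to more than 10 years, with no age given for single libraries. No transgene or engineered allele was involved.

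Blood vessels are lined by endothelial cells. Angpt1, secreted by cells around the vessel, activates the endothelial receptor Tek (also called Tie2) and keeps vessels quiet. Angpt2 is made by endothelial cells themselves, competes for the same receptor and accompanies vessel remodelling. Tie1 is a partner of Tek with no ligand of its own. Vascular endothelial growth factor (VEGF) drives endothelial growth through the receptor Kdr, while Flt1 binds the same ligand tightly and mostly restrains it. Eng is a co-receptor for ligands of the TGF-β family on endothelium. Pecam1 and Cdh5 join endothelial cells to each other, and Vwf is a clotting protein that these cells store and release.

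Values are read counts per gene that were divided by 1 size factor per library before deposition, here called normalised counts. Library depth ranged from 17025447 to 23386729 reads in *Spalax* and from 22143060 to 31179183 in mouse. The 10 genes were read well in every library, with between 26 and 6116 reads per gene in *Spalax* and between 56 and 8238 in mouse. The lowest count was that of *Angpt1* in the UIS library of animal 976, with 26 reads. The muscle label held in the libraries outside the tumors: skeletal muscle fiber markers took between 3.15% and 12.6% of reads in *Spalax* control, tolerant and UIS libraries, and between 5.30% and 13.0% in those of mouse. In IS libraries they took between 0.000976% and 0.0214% of reads in *Spalax* and between 0.000942% and 0.501% in mouse. IS against UIS thus sets tumor tissue beside muscle. In bulk tissue, fewer endothelial cells and less RNA per endothelial cell cannot be told apart. A panel of 30 other endothelial markers was found in both tables, with *Rbp7* at 0 in every *Spalax* library. Its summed normalised count ranged from 13100 to 22500 in *Spalax* libraries outside the tumors and from 7010 to 9850 in IS libraries. In mouse it ranged from 12900 to 27700 outside the tumors and from 5290 to 25800 in IS libraries. As a share of reads the panel overlapped in both species. It took between 0.0518% and 0.0761% in *Spalax* IS libraries and between 0.0502% and 0.13% outside the tumors. In mouse it took between 0.0387% and 0.203% in IS libraries and between 0.0384% and 0.116% outside the tumors.

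In the mouse the loci are placed on the GRCm38 build by the GENCODE vM21 annotation. The ligand genes *Angpt1* (chromosome 15, 42424723 to 42676977, minus strand) and *Angpt2* (chromosome 8, 18690263 to 18741562, minus strand) lie apart from each other. *Tek* (94739289 to 94874976, plus strand) and *Tie1* (118471191 to 118490061, minus strand) share chromosome 4. *Kdr* (75932827 to 75978458) and *Flt1* (147561604 to 147726011) share chromosome 5, both on the minus strand. *Eng* lies on chromosome 2 (32646595 to 32682669, plus strand) and *Pecam1* on chromosome 11 (106654217 to 106750628, minus strand). *Cdh5* lies on chromosome 8 (104101625 to 104144511, plus strand) and *Vwf* on chromosome 6 (125546774 to 125686679, plus strand). Of the exon bases of *Angpt1*, 14.16% lie under the opposite-strand gene *Gm17473*, and of those of *Eng*, 1.51% lie under *Fpgs*. The strand setting of the counting is not given in the sources used here, so reads of these stretches cannot be assigned with certainty. No other member shares exon bases with another gene of the annotation.

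Levels between genes were compared in the mouse, where exon lengths are known. In control muscle the highest level per kilobase of exon was that of *Cdh5*, at 1030 normalised counts per kb (711 to 1390, n = 3). *Pecam1* followed at 672 per kb (445 to 796) and *Eng* at 581 per kb (498 to 696). The receptors formed a middle group, with *Tie1* at 362 per kb, *Flt1* at 329 per kb, *Tek* at 309 per kb and *Kdr* at 286 per kb. The ranges of these 4 genes overlapped. *Angpt1* stood at 91.6 per kb (85.8 to 101), *Vwf* at 60.9 per kb (35.6 to 86.5) and *Angpt2* at 32.0 per kb (22.6 to 43.5). In mouse tumors this order was partly rearranged. There *Angpt2* reached 68.5 per kb (54.9 to 89.2), beside 48.5 per kb for *Flt1* (28.2 to 70.8) and 43.4 per kb for *Tek* (14.5 to 97.3), and these ranges overlapped.

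**Figure D1:**
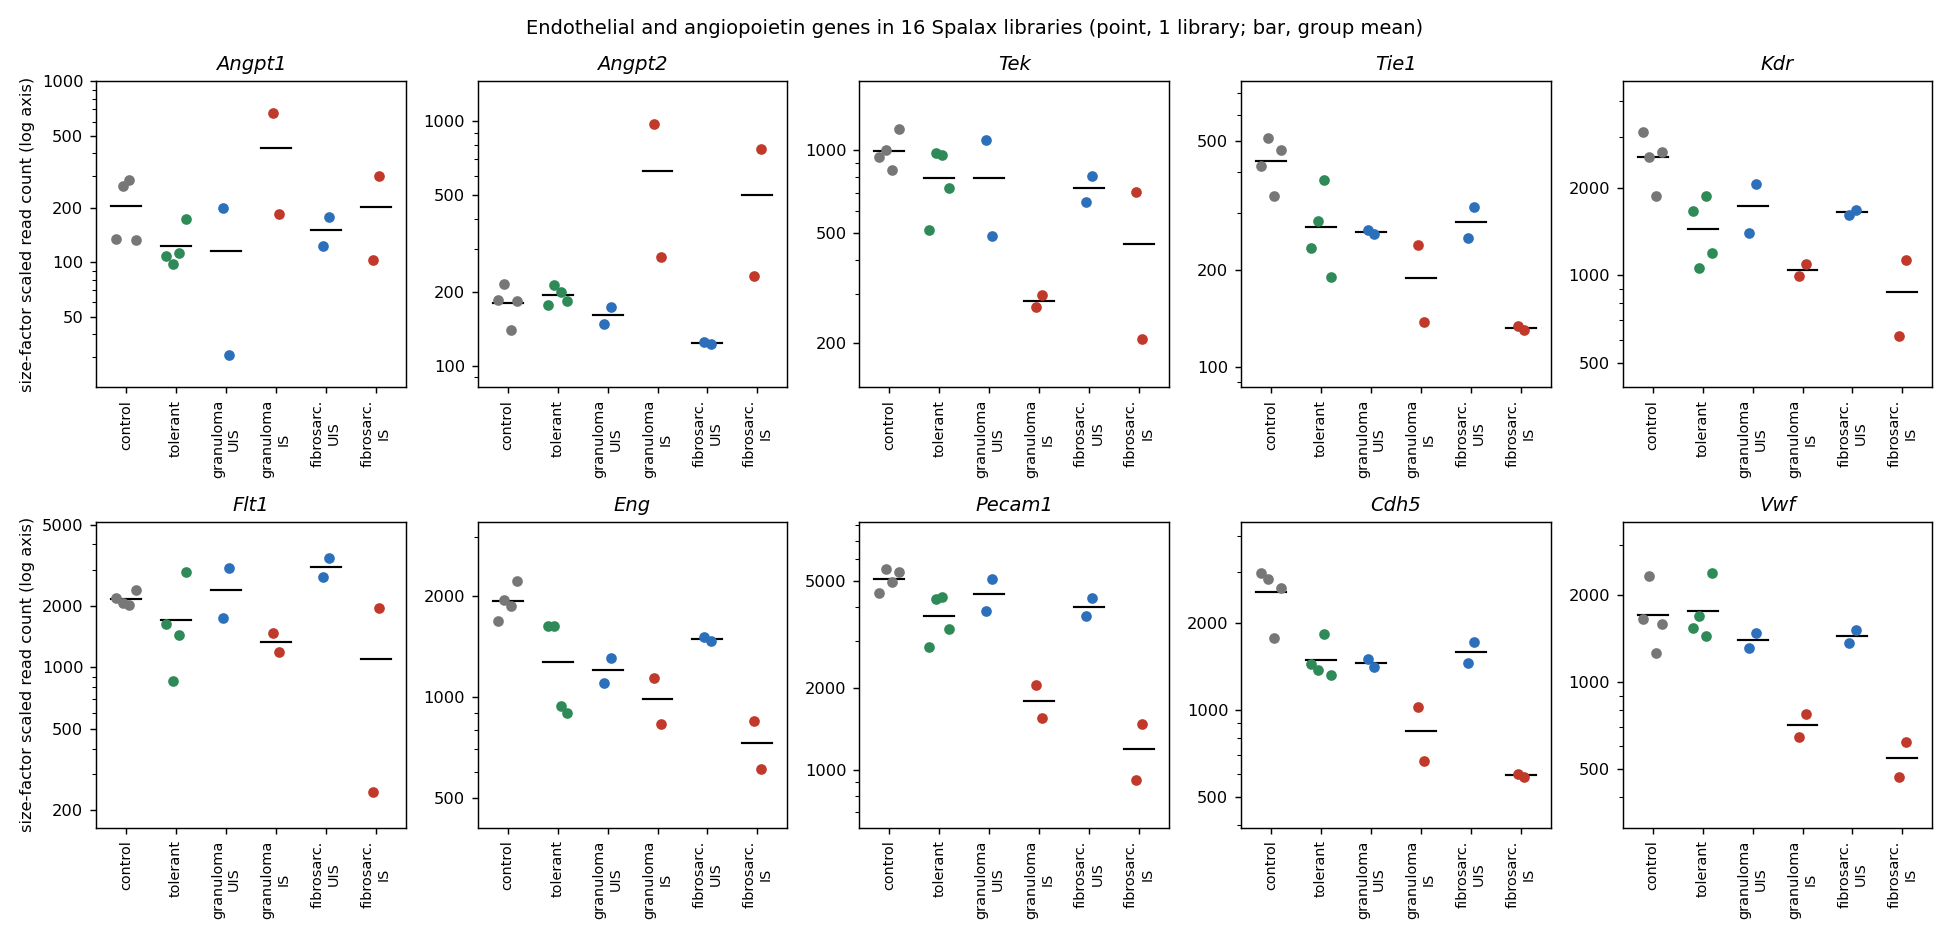
Normalised counts (log axis) of the 10 genes in the 16 *Spalax* libraries by group (grey, control; green, tolerant; blue, UIS; red, IS); each point is 1 library and each bar the group mean. *Angpt2* in the 4 IS libraries lies between 232 and 976, above all UIS libraries, while *Pecam1*, *Cdh5*, *Kdr*, *Tie1* and *Vwf* lie below their UIS libraries.

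The 4 *Spalax* tumors were compared with the UIS of the same 4 animals. *Angpt2* was higher in the tumors, and 7 endothelial genes were lower: *Pecam1*, *Cdh5*, *Vwf*, *Kdr*, *Tek*, *Tie1* and *Eng*. Calls rest on limma with Benjamini-Hochberg adjustment over all genes tested, and an adjusted p up to 0.05 counts as a call. Of the 10 genes, 1 was called higher, beside 26.1% of the 14431 genes tested. In the other direction 7 were called lower, beside 26.5% of all genes. The median log2 fold change of the 10 genes was -0.98, beside 0.006 for all genes.

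*Angpt2* gave the only called rise on the deposited values. Its normalised counts were 976 and 278 in the granulomas of animals 600 and 976, and 769 and 232 in the fibrosarcomas of 2240 and 2230. In the UIS of the same animals, in that order, they were 148, 174, 122 and 125. All 4 tumors lay above all 4 UIS libraries and above the 4 controls (140 to 216). The log2 fold change was 1.73 ± 0.47 (SE, n = 4 against 4, adjusted p = 0.0127), or 3.31-fold higher. The call held without any of the 8 libraries in turn (1.38 to 2.06) and with the animal as a block (adjusted p = 0.0211). The tumors fell into a high and a low pair, and each pair held 1 granuloma and 1 fibrosarcoma.

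*Angpt1*, the other ligand, varied more between animals. It had 670 and 186 normalised counts in the granulomas (600, 976) and 299 and 103 in the fibrosarcomas (2240, 2230). In UIS it had 200, 30.6, 177 and 124, in the same order. The groups overlapped, and the difference of 1.2 ± 0.71 (log2, SE) was not called (adjusted p = 0.185). Within animals *Angpt1* was higher in the tumor by 2.56 (log2) in 976, 1.74 in 600 and 0.75 in 2240, and in 2230 it fell by 0.27. The largest of these differences rests on the library with 26 reads.

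The receptors of the angiopoietins were lower in most tumors. *Tek* had 269 and 297 normalised counts in the granulomas (600, 976) and 207 and 705 in the fibrosarcomas (2240, 2230), against 1096, 490, 810 and 647 in UIS. The fibrosarcoma of 2230 stood apart, with more *Tek* than its own UIS. The log2 fold change was -1.15 ± 0.40 (SE, adjusted p = 0.038). *Tie1* had 239, 138, 130 and 134 in the tumors of 600, 976, 2240 and 2230, against 264, 258, 312 and 250 in UIS. Its groups did not overlap, and the change was -0.80 ± 0.28 (SE, adjusted p = 0.0367). Both calls were weak. With the animal as a block the adjusted p was 0.0612 for *Tek* and 0.0788 for *Tie1*, and with edgeR on the recovered reads 0.0679 and 0.0599. Each call was lost when any of 6 of the 8 libraries was left out.

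Of the VEGF receptors, *Kdr* was lower in every *Spalax* tumor in normalised counts. Its normalised counts were 994, 1098, 1131 and 617 in the tumors of 600, 976, 2240 and 2230, against 1398, 2075, 1679 and 1622 in UIS. The groups did not overlap, and the log2 fold change was -0.84 ± 0.24 (SE, adjusted p = 0.0153). *Flt1* spread widely among the tumors, with 1471, 1192, 1963 and 245 in the same order, against 1740, 3054, 3444 and 2755 in UIS. The value of 2230 was the lowest of all *Spalax* libraries for this gene. *Flt1* was lower in the tumor in each of the 4 animals, but the groups overlapped and the change of -1.47 ± 0.59 (SE) was not called (adjusted p = 0.0596). It was called without the IS library of 2230 (-0.82, adjusted p = 0.0443) or without that of 2240 (-1.82, adjusted p = 0.0335). *Eng*, the TGF-β co-receptor, had 1140, 832, 612 and 852 in the tumors, against 1100, 1307, 1473 and 1508 in UIS. Its change of -0.67 ± 0.23 (SE, adjusted p = 0.0317) was the smallest among the called genes. The call was lost with the block (adjusted p = 0.0817), with edgeR (0.0523) and without any of 5 of the 8 libraries. In animal 600, *Eng* differed by 0.05 (log2) between the sides.

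In normalised counts the structural genes of the endothelium were lower in every *Spalax* tumor. *Pecam1* had 2048, 1555, 1477 and 916 normalised counts in the tumors of 600, 976, 2240 and 2230, against 3849, 5081, 4298 and 3711 in UIS. *Cdh5* had 1021, 665, 586 and 600, against 1506, 1406, 1717 and 1449. *Vwf* had 648, 775, 622 and 471, against 1318, 1479, 1521 and 1365. None of these 3 genes overlapped between tumor and UIS. The log2 fold changes were -1.54 ± 0.26 for *Pecam1* (SE, adjusted p = 0.000953), -1.12 ± 0.22 for *Cdh5* (0.00229) and -1.19 ± 0.20 for *Vwf* (0.000889). All 3 calls, like that of *Kdr*, held without any of the 8 libraries in turn and with the animal as a block. Over the 10 genes, the groups did not overlap for 1 gene that was higher in the tumors, beside 24.4% of all genes, and for 5 that were lower, beside 25.6%.

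Several of these calls depended on how the libraries were scaled. When the recovered reads were scaled by total reads instead, the median gene moved up by 0.771 (log2) in *Spalax* tumors. On this scale *Angpt2* (2.50, adjusted p = 0.00116) and *Angpt1* (1.97, adjusted p = 0.0341) were called higher, 2 of 10 beside 45.5% of all genes. Only *Pecam1* was called lower (-0.77, adjusted p = 0.019), 1 of 10 beside 14.9% of all genes. *Eng* changed sign, to 0.10. Per 1000000 reads, the 8 genes other than the angiopoietins summed to between 351 and 523 reads in *Spalax* IS libraries and between 520 and 687 in UIS. *Angpt2* had between 17.9 and 65.2 reads per 1000000 in IS and between 5.17 and 7.33 in UIS. The rise of *Angpt2* and the fall of *Pecam1* therefore kept their direction and their call on both scales, while the fall of the other 6 genes was called relative to the typical gene only.

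**Figure D2:**
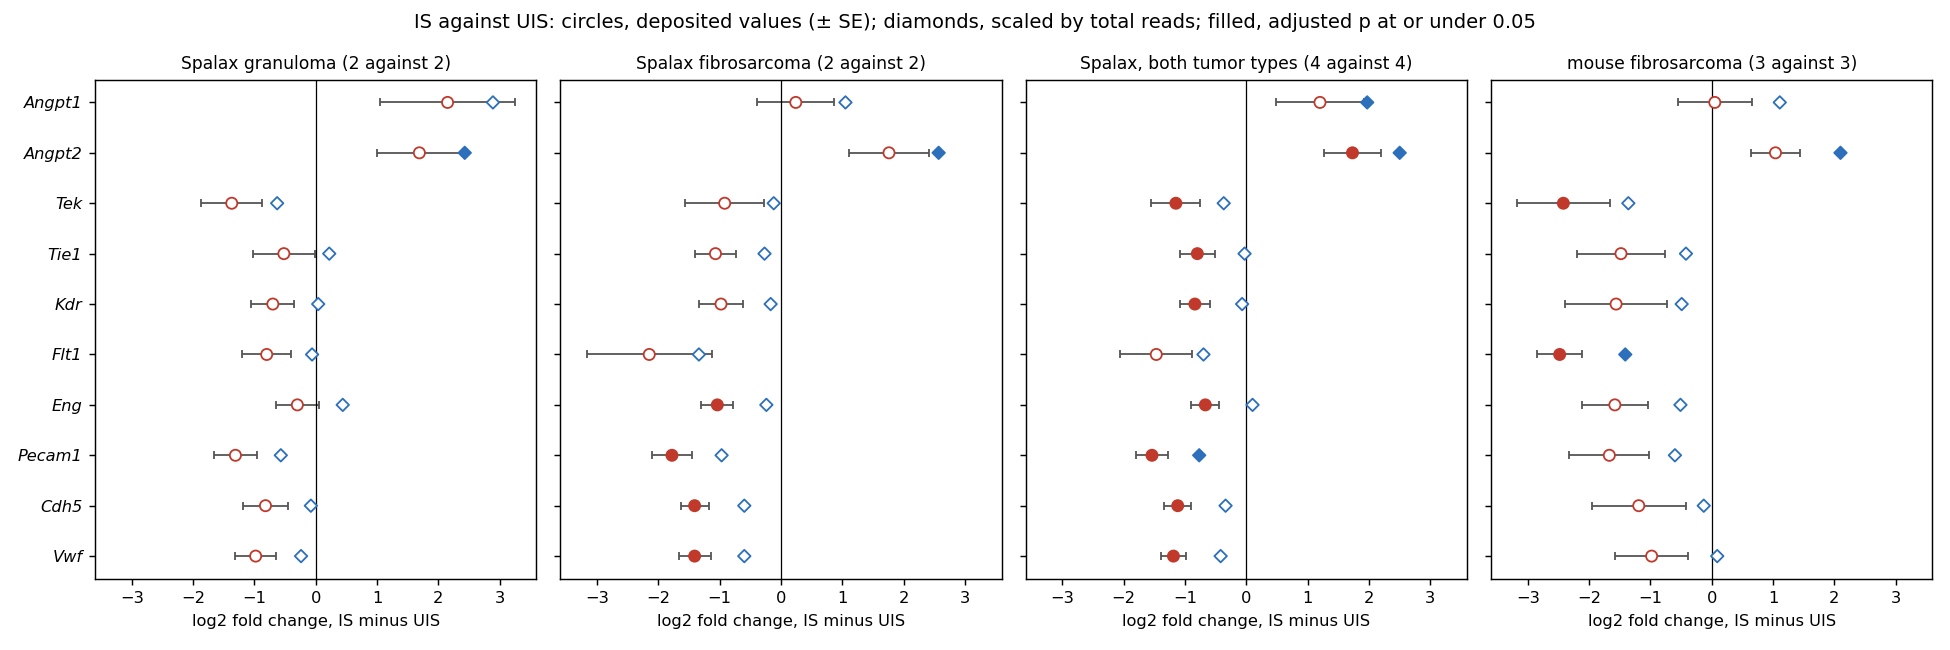
Log2 fold change of IS against UIS for the 10 genes in 4 comparisons; circles show the deposited values with their SE, diamonds the same test on reads scaled by total reads, and filled symbols an adjusted p of at most 0.05. *Angpt2* lies right of 0 in every panel, and the diamonds of *Eng* lie right of 0 in granuloma and in both tumor types together.

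Each tumor type was also compared alone, with 2 libraries against 2. In granuloma none of the 10 genes was called by limma, and 3 had an unadjusted p below 0.05 (*Pecam1*, *Tek* and *Vwf*). DESeq2 called 2 (*Pecam1* lower, *Angpt2* higher) and edgeR called 0, beside 5383 and 2978 of all 14735 genes. By limma 11.7% of all genes were called higher and 12.6% lower. *Pecam1* came closest, at -1.31 ± 0.35 (SE, adjusted p = 0.0505). *Angpt2* differed by 1.69 ± 0.69 (adjusted p = 0.128) and *Angpt1* by 2.15 ± 1.10 (adjusted p = 0.2). Single libraries moved both values: *Angpt2* was 0.79 without the IS library of 600 and 2.59 without that of 976, and *Angpt1* was 0.82 without the UIS library of 976 and 3.49 without that of 600. In fibrosarcoma 4 genes were called lower, beside 19.0% of 14696 genes: *Pecam1* (-1.78 ± 0.32, adjusted p = 0.0177), *Cdh5* (-1.41 ± 0.23, 0.0144), *Vwf* (-1.41 ± 0.26, 0.019) and *Eng* (-1.04 ± 0.26, 0.0407, and 0.0581 with the animal as a block). None was called higher, beside 17.4% of all genes. All 4 calls were lost without the UIS library of either 2230 or 2240. The values of other genes moved when an IS library was left out. Without that of 2230, *Angpt2* stood at 2.63, *Tek* at -1.8, *Tie1* at -1.09 and *Kdr* at -0.54. Without that of 2240, *Flt1* stood at -3.65, *Kdr* at -1.42 and *Tie1* at -1.05. In these fits the lone IS library was assumed to vary like the UIS group. On the scale of total reads none of the 4 was called, and *Angpt2* was called higher in granuloma (2.43, adjusted p = 0.0432) and in fibrosarcoma (2.57, adjusted p = 0.0323). That scale called 3370 of all 14735 genes higher in granuloma and 5169 of 14696 in fibrosarcoma.

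The difference between the tumor types was tested as an interaction. The IS against UIS change in fibrosarcoma minus that in granuloma ranged from -1.91 (*Angpt1*) to 0.45 (*Tek*) over the 10 genes, and the smallest adjusted p was 0.946. No gene of all 15584 tested was called (0%). For *Angpt2* the interaction was 0.07 ± 1.03 (log2, SE), an error far wider than the estimate.

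**Figure D3:**
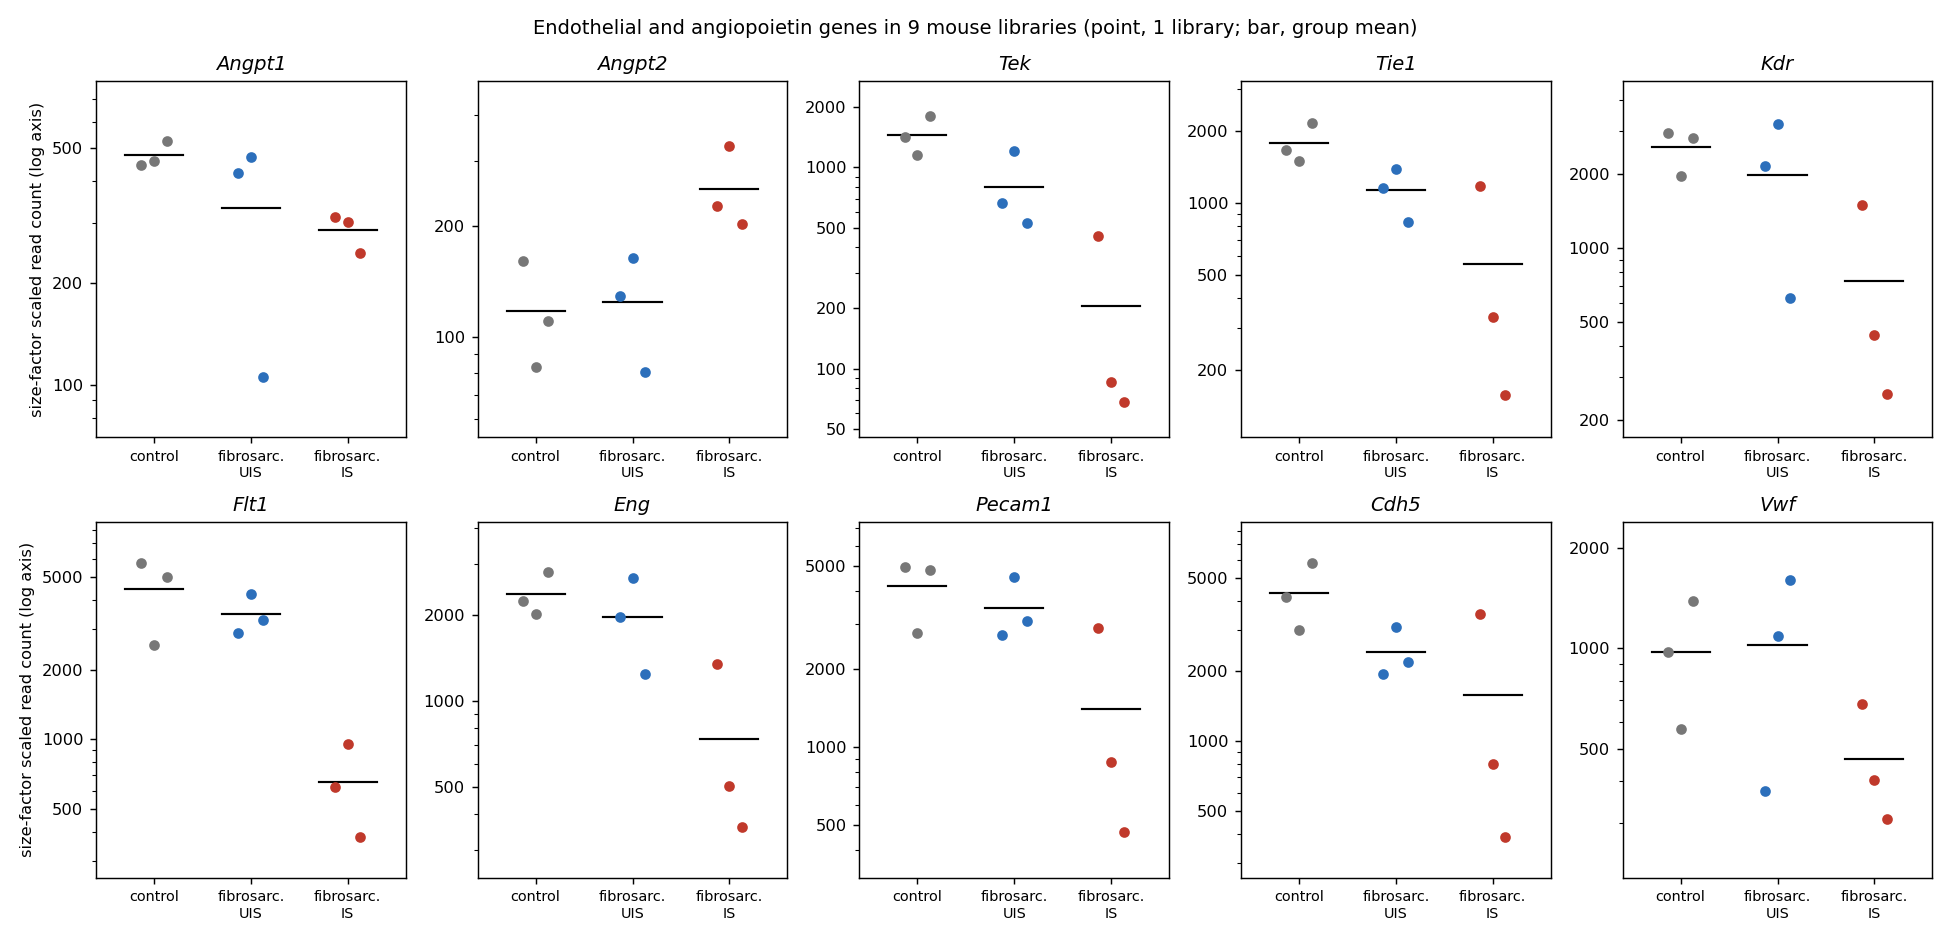
Normalised counts (log axis) of the 10 genes in the 9 mouse libraries by group (grey, control; blue, UIS; red, IS); each point is 1 library and each bar the group mean. *Flt1* and *Tek* lie below their UIS libraries in all 3 tumors and *Angpt2* lies above, while mouse 1019 has the highest IS value of *Pecam1*, *Cdh5*, *Kdr*, *Tek*, *Tie1*, *Vwf* and *Eng*.

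In the mouse fibrosarcomas *Flt1* and *Tek* were lower than in the UIS of the same 3 mice. *Flt1* had 626, 957 and 381 normalised counts in the tumors of mice 1019, 1023 and 512, against 2862, 4219 and 3281 in UIS. The log2 fold change was -2.48 ± 0.37 (SE, n = 3 against 3, adjusted p = 0.00409), and the call held without any of the 6 libraries in turn and on the scale of total reads (-1.41, adjusted p = 0.0199). *Tek* had 459, 86.0 and 68.4, against 666, 1204 and 531. Its change of -2.42 ± 0.76 (SE, adjusted p = 0.0399) was lost without any of 5 of the 6 libraries, with edgeR (adjusted p = 0.0828) and on the scale of total reads (0.192). Thus 2 of 10 genes were called lower, beside 22.3% of 15220 genes, and none higher, beside 22.8%. The median log2 fold change of the 10 genes was -1.52, beside 0.107 for all genes. Scaling by total reads moved the median gene up by 1.065, with 7555 of all genes called higher and 1675 lower.

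*Angpt2* was higher in all 3 mouse tumors as well. It had 226, 329 and 203 normalised counts in the tumors of 1019, 1023 and 512, against 129, 164 and 80.6 in UIS and between 83.4 and 161 in the controls. The groups did not overlap, but the change of 1.04 ± 0.40 (SE) was not called on the deposited values (adjusted p = 0.0724). It was called on the scale of total reads (2.10, adjusted p = 0.00933), beside 7555 of all 15220 genes called higher. DESeq2 called it too (0.95, adjusted p = 0.0495), beside 8174 genes called in either direction. *Angpt1* had 312, 304 and 246 in the tumors, against 423, 472 and 105 in UIS. Its difference of 0.05 ± 0.60 (SE) turned to -0.26 with edgeR and to -0.64 without the UIS library of mouse 512.

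The 6 remaining genes rested on which mouse was looked at. In the tumor of mouse 1019, *Pecam1* had 2880 normalised counts and *Cdh5* 3527, beside 2720 and 1935 in its UIS. In the tumors of 1023 and 512 *Pecam1* had 877 and 469, and *Cdh5* 801 and 388. *Kdr* (1500 against 444 and 256), *Tie1* (1175 against 334 and 157), *Vwf* (683 against 404 and 308) and *Eng* (1339 against 502 and 360) showed the same order of the tumors. The panel of 30 other endothelial markers summed to 25800 in the tumor of 1019, 17900 in that of 1023 and 5290 in that of 512. Muscle fiber markers took 0.000942%, 0.151% and 0.501% of reads in the same tumors, and their part in the result was not tested. Without the IS library of 1019, 6 genes were called lower (*Cdh5*, *Eng*, *Flt1*, *Pecam1*, *Tek* and *Tie1*) in place of 2. The share of all genes called in that fit was not counted. With the animal as a block *Eng* was called too (-1.58, adjusted p = 0.0356, against 0.0526 without the block).

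The response of *Spalax* fibrosarcoma was set against that of mouse fibrosarcoma by an interaction term, over 12816 genes named alike in both tables. Only differences within a table enter this test, since the tables were normalised separately. None of the 10 genes was called, beside 4.55% of all genes. The interaction ranged from -0.44 (*Vwf*) to 1.5 (*Tek*), and the smallest adjusted p was 0.489. For *Angpt2* it was 0.72 ± 0.77 (log2, SE) and for *Pecam1* -0.11 ± 0.91. On the deposited values the animals of both species could be read side by side as well. Across the 7 tumor-bearing animals, *Angpt2* was higher in the tumor than in the UIS in 7 of 7, by 0.67 to 2.71 (log2). *Kdr* and *Flt1* were lower in 7 of 7. *Pecam1*, *Cdh5*, *Tie1*, *Vwf*, *Eng* and *Tek* were lower in 6 of 7 each, and *Angpt1* was higher in 4 and lower in 3. The exception was mouse 1019 for *Pecam1*, *Cdh5*, *Tie1* and *Vwf*, animal 600 for *Eng* and animal 2230 for *Tek*. Per 1000000 reads *Kdr* was higher in the tumor in 600 (66.5 against 59.3), 2240 (83.5 against 75.6) and mouse 1019 (118 against 80.8). It was equal in mouse 512 (18.8) and lower in the other animals. *Flt1* was higher in 600 (98.3 against 73.8) and lower in the others, while *Angpt2* and *Angpt1* were higher in all. *Eng* was higher in 600 (76.2 against 46.6), 976 (61.9 against 55.0), 2230 (65.8 against 62.3) and mouse 1019 (105 against 73.3). *Tie1* was higher in 600, 2230 and mouse 1019, *Tek* in 976, 2230 and mouse 1019, and *Cdh5* in 600 and mouse 1019. *Pecam1* and *Vwf* were higher in mouse 1019 alone. These 6 genes were lower in the animals not named for them. How many of all genes went in the same direction in every animal was not counted.

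Muscle of the UIS was compared with muscle of untreated animals to see whether vessel genes differed away from the tumor. In *Spalax* none of the 10 genes was called by limma, as no gene of all 13909 was (0%). Without adjustment 2315 genes had a p below 0.05. DESeq2 called 520 genes, *Cdh5* among them (adjusted p = 0.0401), and edgeR called 0. *Cdh5* had between 1406 and 1717 normalised counts in UIS and between 1779 and 2987 in the controls (-0.73 ± 0.20, SE; limma adjusted p = 0.196). *Tie1* (250 to 312 against 337 to 509) and *Eng* (1100 to 1508 against 1685 to 2226) did not overlap either. These 3 of 10 genes were lower in UIS without overlap, beside 6.20% of all genes. *Angpt2* had between 122 and 174 in UIS and overlapped the controls. The control libraries carry dual indexes and those of tumor-bearing animals single indexes, so treatment and library type cannot be told apart here. All 4 controls were female, and 1 of the 4 tumor-bearing animals was male.

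Tolerant *Spalax* were compared with the same controls, so the control values are shared with the comparison above. Again no gene of the 10 was called by limma, as none of 14020 was (0%). Without adjustment 733 genes had a p below 0.05, with 60 called by DESeq2 and 0 by edgeR. *Cdh5* had 1444, 1377, 1825 and 1319 normalised counts in tolerant animals 2218, 2251, 2261 and 2375, against 2987, 2830, 1779 and 2636 in controls 1042, 1075, 2095 and 6038. All tolerant animals but 2261 lay below the lowest control (-0.76 ± 0.21, SE; adjusted p = 0.758). *Kdr* had 1665, 1063, 1881 and 1196 against 3129, 2557, 1880 and 2666 (-0.83 ± 0.24, SE; adjusted p = 0.769), and only 2261 reached the lowest control. *Pecam1* (2830 to 4348 against 4481 to 5497) and *Eng* (895 to 1632 against 1685 to 2226) did not overlap, and both were lower in tolerant animals. These are 2 of 10 genes, beside 1.36% of all genes that were lower without overlap. *Angpt2* was close in both groups, with 177, 215, 199 and 184 in tolerant animals against 186, 216, 140 and 184 in controls (0.11 ± 0.22, SE). *Vwf* likewise had between 1450 and 2399 against 1269 to 2343. Muscle fiber markers took between 5.66% and 11.2% of reads in tolerant animals and between 9.67% and 12.6% in controls. Macrophage markers summed to 29000 in the tolerant library of 2251 and to between 1880 and 8480 in the other 3. Fibroblast markers summed to 187000 there and to between 7270 and 42900 in the other 3, and their part in the values was not tested. Leaving out each library in turn gave -0.93 to -0.68 for *Cdh5* and -0.97 to -0.70 for *Kdr*. The controls were all female and 3 of the 4 tolerant animals male.

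In mouse, UIS and control muscle gave no called gene by limma among 14792 (0%), with 1621 genes at a p below 0.05 before adjustment, 342 by DESeq2 and 0 by edgeR. Of the 10 genes *Tie1* alone did not overlap, with 1163, 1394 and 835 normalised counts in UIS against 1672, 1504 and 2164 in controls (-0.67 ± 0.28, SE; adjusted p = 0.453). This is 1 of 10, beside 11.7% of all genes that were lower without overlap. *Tek* differed by -0.93 ± 0.35 (adjusted p = 0.448) and *Cdh5* by -0.82 ± 0.32 (adjusted p = 0.452). *Angpt2* had between 80.6 and 164 in UIS and between 83.4 and 161 in controls. The index types differ between these groups as in *Spalax*, so the groups and the library type cannot be told apart.

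Ratios within a library hardly depend on its scaling. They were formed for 3 pairs of members and compared by exact two-sided permutation tests over libraries, 21 tests in all with Benjamini-Hochberg adjustment. *Angpt2* relative to *Cdh5* weighs the endothelial ligand against an endothelial junction gene. In *Spalax* this ratio was 0.956 and 0.419 in the granulomas (600, 976) and 1.31 and 0.388 in the fibrosarcomas (2240, 2230). In UIS it was 0.0991, 0.125, 0.0719 and 0.087, in the same order. The tumors did not overlap with UIS, and the log2 difference was 2.84 (exact permutation p = 0.0286, the smallest possible with 4 against 4; adjusted p = 0.2). In the mouse tumors of 1023 and 512 it was 0.412 and 0.523, beside 0.0531 and 0.0373 in UIS. In mouse 1019 it was 0.0645 in the tumor and 0.0674 in UIS (log2 difference of the groups 2.23, exact permutation p = 0.2; the smallest possible with 3 against 3 is 0.1).

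The same ratio differed between tolerant and control *Spalax* without overlap. It was 0.123, 0.157, 0.11 and 0.14 in tolerant animals 2218, 2251, 2261 and 2375 and between 0.0624 and 0.0791 in the controls (log2 difference 0.87, exact permutation p = 0.0286, adjusted p = 0.2). In the tolerant animals *Cdh5* was lower and *Angpt2* close to the controls. *Angpt2* relative to *Angpt1*, the balance of the ligands, was 1.46 and 1.49 in the granulomas and 2.25 and 2.56 in the fibrosarcomas. In UIS it spread from 0.694 to 5.54, where the highest value is that of animal 976 with 26 reads of *Angpt1*. The log2 difference was 0.53 (exact permutation p = 0.571). In the mouse it was 0.726, 1.08 and 0.825 in the tumors of 1019, 1023 and 512, against 0.307, 0.349 and 0.769 in UIS (log2 difference 0.99, exact permutation p = 0.2). *Kdr* relative to *Flt1* ranged from 0.576 to 2.51 in the *Spalax* tumors and from 0.465 to 2.39 in the mouse tumors, with the highest values in animal 2230 and mouse 1019. In *Spalax* UIS it was 0.488 to 0.803, below the 0.926 to 1.43 of the controls (log2 difference -0.89, exact permutation p = 0.0286, adjusted p = 0.2).

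**Figure D4:**
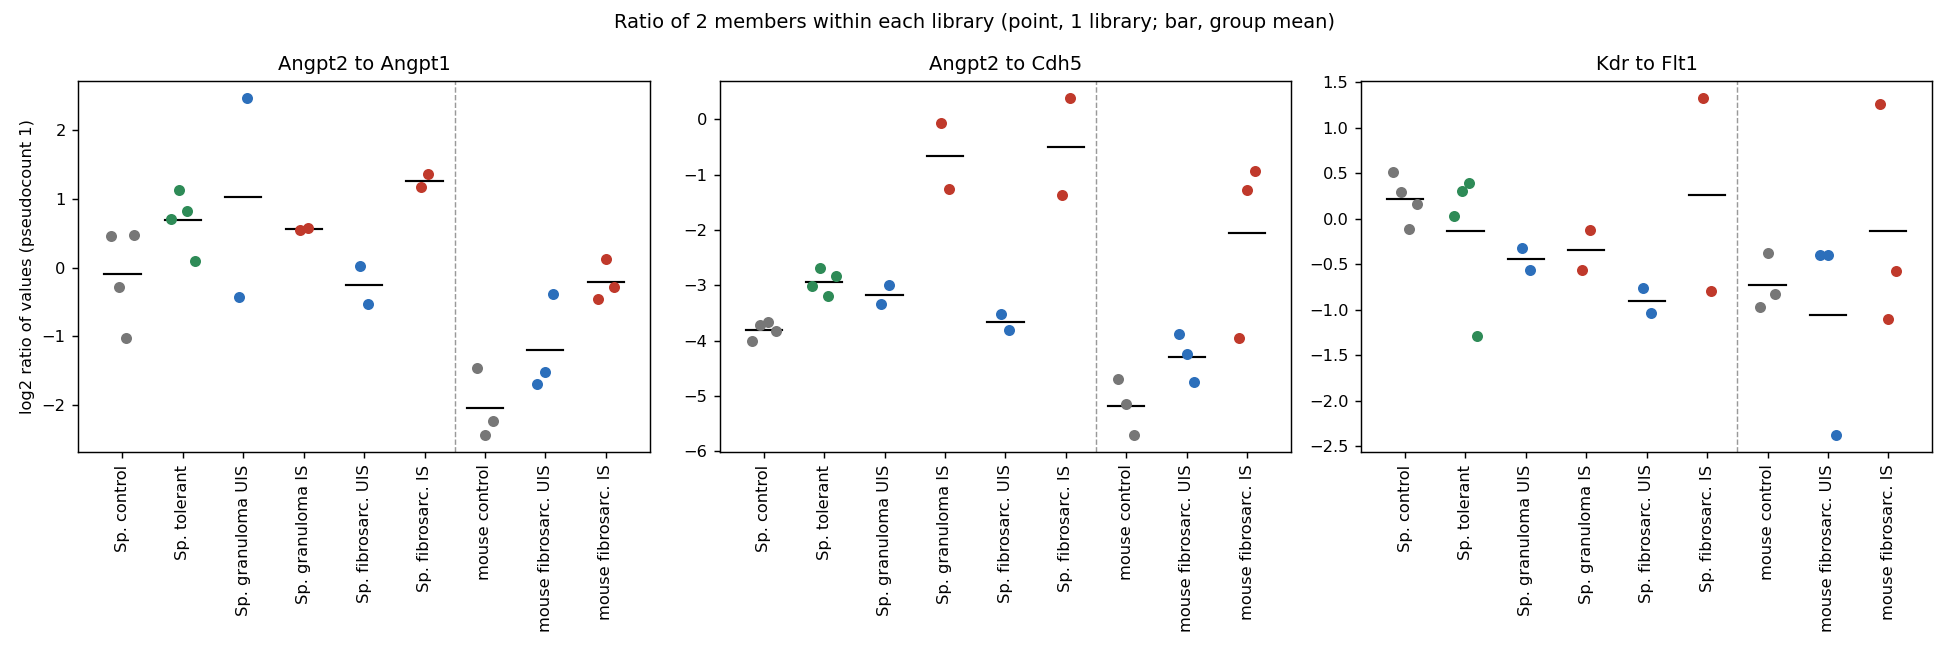
Log2 ratio of 2 genes within each library, by group, for *Angpt2* to *Angpt1*, *Angpt2* to *Cdh5* and *Kdr* to *Flt1*; each point is 1 library, each bar a group mean, and the dashed line separates *Spalax* from mouse. For *Angpt2* to *Cdh5* all 4 *Spalax* tumors lie above all other *Spalax* libraries, and mouse 1019 is the low point among the mouse tumors.

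Of the VEGF and angiopoietin partners, 13 genes were listed, and 12 were tested in the 4 *Spalax* tumors together. There 4 rose and 3 fell, beside 26.1% and 26.5% of all genes. The median was 0.60 (log2), beside 0.006 for all genes. *Pgf*, a VEGF family ligand of Flt1, rose by 3.24 ± 0.85 (SE, adjusted p = 0.0103). *Vegfc*, the ligand of the lymphatic receptor Flt4, rose by 2.09 ± 0.51 (adjusted p = 0.00717), and *Nrp2*, a co-receptor for VEGF ligands, by 2.18 ± 0.27 (adjusted p = 0.000169). *Angptl1*, an angiopoietin-like protein, rose by 2.47 ± 0.79 (adjusted p = 0.0252). *Ptprb*, the endothelial phosphatase that removes phosphate from Tek, fell by 2.71 ± 0.32 (adjusted p = 0.000136). *Vegfb* fell by 1.00 ± 0.25 (adjusted p = 0.00824) and *Figf*, the gene of VEGF-D, fell by 2.28 ± 0.82 (adjusted p = 0.041). On the scale of total reads 6 of the 12 genes were called higher and 1 lower, beside 45.5% and 14.9% of all genes. In the 3 comparisons of muscle with muscle none of the 12 or 13 genes tested was called, as none of all genes was (0%).

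*Vegfa*, the main ligand of Kdr, was not called in any tumor comparison. In *Spalax* tumors it had between 379 and 5477 normalised counts in fibrosarcoma and between 841 and 5255 in granuloma. In UIS it had between 443 and 2651 (0.11 ± 0.94, SE; adjusted p = 0.933). *Nrp1* (1.10 ± 0.54, adjusted p = 0.115), *Angptl4* (1.23 ± 0.64, 0.133), *Angptl2* (-0.22 ± 0.54, 0.754) and *Flt4* (-0.34 ± 0.31, 0.395) were not called. Of the IS against UIS comparisons *Angpt4* passed the filter on low values in granuloma alone (2.46 ± 2.00, adjusted p = 0.399).

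By tumor type, granuloma held 2 of 13 partners that rose (*Angptl1*, 4.14 ± 0.62 and *Nrp2*, 2.26 ± 0.49) and 1 that fell (*Ptprb*, -2.64 ± 0.40). Of all genes 11.7% were called higher there and 12.6% lower. *Spalax* fibrosarcoma held 1 of 12 that rose (*Nrp2*, 2.10 ± 0.22) and 2 that fell (*Ptprb*, -2.77 ± 0.54 and *Vegfb*, -1.22 ± 0.34). The shares of all genes were 17.4% and 19.0%. Mouse fibrosarcoma held 2 of 12 that rose and 2 that fell, beside 22.8% and 22.3% of all genes. The median in mouse was -0.40, beside 0.107 for all genes. *Vegfc* rose there by 2.24 ± 0.53 (SE, adjusted p = 0.0159) and *Angptl2* by 3.06 ± 0.76 (adjusted p = 0.0187). *Vegfb* fell by 2.88 ± 0.49 (adjusted p = 0.00575) and *Ptprb* by 2.51 ± 0.46 (adjusted p = 0.00727). *Ptprb* was thus called lower in all 3 tumor types. It had between 160 and 367 normalised counts in *Spalax* tumors against 1224 to 2266 in UIS, and between 295 and 876 in mouse tumors against 1867 to 3576. In the mouse *Vegfa* (-1.57 ± 0.70, adjusted p = 0.11), *Pgf* (1.62 ± 0.61, 0.069), *Nrp2* (1.07 ± 0.47, 0.107), *Angptl1* (-1.5 ± 0.74, 0.139), *Figf* (-0.79 ± 1.30, 0.645), *Flt4* (-0.44 ± 0.50, 0.506), *Nrp1* (-0.36 ± 0.58, 0.633) and *Angptl4* (-0.31 ± 0.89, 0.796) were not called.

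The panel of 30 other endothelial markers was counted in the same way. In granuloma 1 of 29 tested genes rose and 4 fell (median -0.39, beside -0.013 for all genes), and 4 of 29 lies near the 12.6% of all genes called lower. In *Spalax* fibrosarcoma 1 rose and 15 of 29 fell (median -1.54, beside 0.033), beside 19.0% of all genes called lower. In mouse 1 of 30 rose and 10 fell (median -1.62, beside 0.107), beside 22.3% called lower. *Esm1*, a secreted protein of sprouting endothelium, was the gene that rose in each: by 4.87 ± 0.95 in granuloma, 3.76 ± 0.83 in *Spalax* fibrosarcoma and 4.69 ± 1.11 in mouse. Its normalised counts in *Spalax* UIS were at most 2.84. *Gpihbp1*, which anchors lipoprotein lipase to capillaries, fell by 4.18 ± 0.74 in granuloma and fell by 5.60 ± 1.13 in *Spalax* fibrosarcoma. *Sox17*, a transcription factor of arteries, fell in all 3 (-2.55 ± 0.58, -3.55 ± 0.69 and -2.89 ± 0.71). *Rbp7*, a retinol-binding protein of capillaries, fell by 4.13 ± 0.76 in mouse. On the scale of total reads the counts were 2 up and 1 down in granuloma, 2 up and 7 down in *Spalax* fibrosarcoma, and 2 up and 1 down in mouse. Over all genes, this scale called 3370 higher and 1126 lower of 14735 in granuloma. It called 5169 and 1661 of 14696 in *Spalax* fibrosarcoma, and 7555 and 1675 of 15220 in mouse.

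The counts of the smaller vessel lists stand beside the same shares of all genes, namely 11.7% higher and 12.6% lower in granuloma, 17.4% and 19.0% in *Spalax* fibrosarcoma, and 22.8% and 22.3% in mouse. Of the Notch and ephrin genes that pattern arteries and veins, 1 of 12 fell in granuloma (*Notch4*, -2.04 ± 0.35) and 5 of 11 in *Spalax* fibrosarcoma, led by *Jag2* (-3.61 ± 0.41) and *Notch4* (-2.33 ± 0.29). In mouse *Efnb2* (1.67 ± 0.42) and *Rbpj* (2.46 ± 0.41) rose and *Hey2* fell by 2.06 ± 0.69. On the scale of total reads the Notch and ephrin list had 0 up and 1 down in granuloma, 1 up and 2 down in *Spalax* fibrosarcoma, and 4 up and 0 down in mouse. Of 13 tested genes around Eng, 2 rose in granuloma (*Tgfb1*, 2.35 ± 0.48 and *Id2*, 2.04 ± 0.51). In *Spalax* fibrosarcoma 1 rose (*Smad1*, 1.11 ± 0.29) and 4 fell, led by *Smad6* (-2.58 ± 0.58) and *Id1* (-2.50 ± 0.37), both known targets of endothelial BMP signals. In mouse 4 rose, led by *Id2* (2.26 ± 0.64) and *Tgfb1* (2.22 ± 0.63), and 2 fell (*Smad6*, -2.59 ± 0.48 and *Id1*, -2.16 ± 0.60). On the scale of total reads the genes around Eng had 5 up and 0 down in granuloma, 4 up and 1 down in *Spalax* fibrosarcoma, and 7 up and 0 down in mouse. The balance in *Spalax* fibrosarcoma thus turned. Over all genes it turned as well, from 2550 up and 2789 down to 5169 up and 1661 down of 14696. On the same scale 3370 of all 14735 genes were called higher in granuloma and 7555 of 15220 in mouse. *Gdf2*, the gene of a ligand of Eng, was at 0 in every *Spalax* library.

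Genes of endothelial activation rose where they were called. These were 5 of 8 in granuloma, with *Icam1* (3.57 ± 0.59) among them, 2 of 8 in *Spalax* fibrosarcoma (*Procr*, 3.23 ± 0.40 and *Icam1*, 2.91 ± 0.23) and 1 of 9 in mouse (*Vcam1*, 3.80 ± 0.81). None fell. Of all genes 11.7%, 17.4% and 22.8% were called higher in the same order, so only the count in granuloma stood well above its share. Several of these genes are also expressed by fibroblasts and macrophages. Macrophage markers summed to between 14400 and 65200 in *Spalax* tumors, against 1960 to 6800 in UIS, and fibroblast markers to between 117000 and 1890000, against 13400 to 43400, and their part in the result was not tested. Of 6 lymphatic markers only *Pdpn* was called in granuloma (5.37 ± 0.62), *Spalax* fibrosarcoma (5.97 ± 0.61) and mouse (4.35 ± 1.16), and it is also expressed by fibroblasts.

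Mural cells wrap the endothelium and are a source of Angpt1. Of 11 markers, 2 rose and 2 fell in granuloma, 1 rose and 3 fell in *Spalax* fibrosarcoma, and 1 rose and 4 fell in mouse. The share of all genes called lower was 12.6%, 19.0% and 22.3% in the same order. On the scale of total reads they were 3 up and 1 down, 3 up and 1 down, and 3 up and 3 down. The balance thus depended on the scaling, as it did over all genes. *Myh11*, of smooth muscle, fell in all 3 (-2.26 ± 0.44, -2.53 ± 0.54 and -4.04 ± 0.38). *Rgs5* fell by 3.49 ± 0.21 in *Spalax* fibrosarcoma, and *Abcc9*, of pericytes, fell by 4.59 ± 0.86 in granuloma and fell by 4.23 ± 0.57 in mouse. *Cspg4* rose by 4.32 ± 0.73 and 1.39 ± 0.22 in the *Spalax* tumors. *Pdgfrb* rose by 1.78 ± 0.43 in granuloma and by 0.96 ± 0.20 in mouse, and it is also expressed by fibroblasts. Of the platelet markers, which bear on *Vwf*, 1 was tested in granuloma and none was called. In *Spalax* fibrosarcoma 2 of 4 fell (*Gp1ba*, -3.26 ± 0.56 and *Itga2b*, -2.04 ± 0.46), and in mouse 1 of 4 fell (*Gp1ba*, -2.18 ± 0.52). Their summed normalised count in *Spalax* was between 82.2 and 290 in tumors and between 252 and 741 in UIS.

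The genes of low oxygen, among whose known targets *Angpt2*, *Flt1* and *Vegfa* are often counted, rose where they were called in *Spalax*: 2 of 10 in granuloma (*Ndrg1*, 3.17 ± 0.65 and *P4ha1*, 3.15 ± 0.49) and 2 of 10 in fibrosarcoma (*Slc2a1*, 4.24 ± 0.84 and *P4ha1*, 1.73 ± 0.26). In mouse 4 of 11 rose, led by *Car9* (3.38 ± 1.02) and *Adm* (2.27 ± 0.73), and 2 fell (*Bnip3*, -3.69 ± 0.99 and *Ldha*, -2.13 ± 0.58). Of all genes 11.7%, 17.4% and 22.8% were called higher in granuloma, *Spalax* fibrosarcoma and mouse, and 22.3% were called lower in mouse. Proliferation markers rose in 6 of 8 in granuloma (*Ccnb1*, 7.17 ± 0.90 and *Mki67*, 5.86 ± 0.59), in 8 of 8 in *Spalax* fibrosarcoma (*Mki67*, 9.01 ± 0.35 and *Ccnb1*, 8.44 ± 0.55) and in 8 of 8 in mouse (*Top2a*, 7.29 ± 1.62 and *Bub1*, 6.96 ± 1.45).

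Lists of other cells marked the change of tissue. Their counts stand beside 11.7% of all genes called higher and 12.6% lower in granuloma. These shares were 17.4% and 19.0% in *Spalax* fibrosarcoma, and 22.8% and 22.3% in mouse. All 7 muscle fiber markers fell in both *Spalax* tumor types, as did all 10 in mouse. *Ckm* fell in each (-12.02 ± 1.5 in granuloma, -16.01 ± 0.26 in *Spalax* fibrosarcoma and -10.55 ± 2.14 in mouse), and *Mb*, *Myl1* and *Myh4* led beside it. Of the fat cell markers, 1 of 4 fell in granuloma (*Fabp4*, -3.98 ± 0.74), 4 of 6 in *Spalax* fibrosarcoma (*Adipoq*, -8.74 ± 0.64) and 6 of 6 in mouse (*Adipoq*, -8.83 ± 0.94). Fibroblast markers rose in 6 of 7 in granuloma (*Col1a1*, 9.15 ± 0.66), 2 of 7 in *Spalax* fibrosarcoma (*Col1a1*, 4.67 ± 0.77) and 3 of 7 in mouse (*Col1a1*, 5.64 ± 1.23). Macrophage markers rose in 5 of 10, 4 of 10 and 6 of 11, with *Emr1* at 5.45 ± 0.91 in granuloma, *Cd68* at 3.95 ± 0.25 in *Spalax* fibrosarcoma and *C1qa* at 3.76 ± 1.15 in mouse.

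For each member the gene with the most similar pattern was sought, by Spearman's rho of the log2 values over the 16 *Spalax* libraries (16055 genes) or the 9 mouse libraries (16670 genes). These libraries share the split into tumor and muscle, so the values only describe. In *Spalax*, *Cdh5* went with *Emcn* (0.96), *Tie1* with *Sdpr* (0.94) and *Pecam1* with *Tie1* (0.91), all genes of endothelium or its caveolae. *Tek* went with *Aoc3* (0.89), *Eng* with *Slc9a3r2* (0.92), *Vwf* with *St6galnac5* (0.85), *Kdr* with *Eefsec* (0.91) and *Flt1* with *Dctn4* (0.94). *Angpt1* had the weakest partner, *Ccdc106* (0.80). *Angpt2* went with *Plk1* (0.92), a kinase of dividing cells, and among the members its closest was *Angpt1* (0.23) and its farthest *Flt1* (-0.64). *Tie1* held the densest place, with 5 other members among its 100 most similar genes, while *Angpt1*, *Angpt2*, *Flt1* and *Vwf* held none.

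In the mouse, with 9 libraries, ties were frequent: for 5 members between 3 and 8 genes reached the value given, and 1 of them is named. *Cdh5* went with *Clec1a* (0.98), *Pecam1* with *Ccdc152* (1.00), *Kdr* with *Npr3* (0.98), *Flt1* with *Aldh6a1* (0.98) and *Tek* with *Bmp6* (1.00). *Tie1* went with *Sdr42e1* (1.00), *Vwf* with *Pcdhgb2* (1.00), *Eng* with *Fam222a* (1.00) and *Angpt1* with *Als2cr12* (0.98). *Angpt2* went with *Umps* (0.98), and all its values with the other members were negative, from -0.20 (*Angpt1*) to -0.52 (*Tek*).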

How the data were processed

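RNA of 25 neck tissue samples was sequenced from strand-specific libraries as single-end reads, which the authors trimmed with Trimmomatic, aligned with TopHat and counted with HTSeq. The submitters' processing notes name TopHat 1.4.1, DESeq and GRCm38. The authors deposited 1 table per species, whose signal values are gene counts already scaled by 1 size factor per library. In every library 100% of values were whole multiples of the value of 1 read (0.517 to 1.44; tolerance 0.01), so whole reads were recovered. In the *Spalax* table a comma stood for each lower-case t of a name, in 2387 names, which include *Flt1*, *Angpt1* and *Angpt2*, and values were read from the end of the line.

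Tests used limma 3.58.1 in R 4.3.3 (variance trend by mean level) on log2 of the value with a pseudocount of 1, keeping genes that reached 10 in a number of libraries equal to the size of the smaller group. Fold changes are on that scale. Each fit held the libraries of its own groups and no covariate, and p-values were adjusted by Benjamini-Hochberg over all genes tested. Replicates are separate animals. Alternatives were a pseudocount of 0.1, no filter, edgeR 4.0.16 (quasi-likelihood) and DESeq2 1.42.0 on the recovered reads, scaling by total reads, the animal as a block, 1 model over all libraries of a species, and leaving out each library. The pairing comes from the animal numbers that IS and UIS share. The deviations of same-animal libraries correlated at 0.01 in granuloma, 0 in *Spalax* fibrosarcoma and 0.05 to 0.18 in mouse. On the recovered reads edgeR called 2978, 5096, 7652 and 6572 genes for IS against UIS in granuloma, *Spalax* fibrosarcoma, both types together and mouse. Methods were tested on simulated data in which a small set of genes was changed, equally many up and down. In the tumors many more genes changed, so the simulation does not bear on the calls that depended on scaling. Depth limits precision by counting error only, since reads carry no molecular identifiers. Text names the 10 members, every VEGF and angiopoietin partner, for other lists at most the 2 called genes with the largest rise and fall per tumor type, and for each member the gene with the highest Spearman's rho among genes with a value of at least 10 in at least 2 libraries. A result that this rule would name is not reported here. The members and lists were chosen with earlier results of these data known. Python 3.11.15 and matplotlib 3.10.9 made the figures.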

Additional observations from a re-analysis of the deposited data

Results flagged for a closer look

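Of 40 sets of 4 *Spalax* libraries examined (10 genes in controls, tolerant animals, the 4 UIS and the 4 IS libraries), 1 held a library set apart by Dixon's test at the 95% level, where chance alone gives about 1 in 20. In the granuloma of animal 600 *Tie1* had 238.8 normalised counts, against 130.3 to 138.4 in the other 3 tumors. The gap took 0.901 of the whole range on the log2 scale, above the critical value for 4 libraries. In the UIS of the same animal *Tie1* had 264 normalised counts.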

How the results depend on the processing

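Of 182 alternative values for the 14 calls of the 10 genes, 49 lost the call and 1 turned the direction. In granuloma 0 genes were called, against 2 with DESeq2, 1 on the scale of total reads and 6 in 1 model over all libraries of the species. In *Spalax* fibrosarcoma 4 were called, against 1 on the scale of total reads, 8 in 1 model and 0 to 8 when each library was left out. The 0 came without the UIS library of 2230 or of 2240 and the 8 without the IS library of 2230. In both tumor types together 8 were called, against 5 with edgeR, 3 on the scale of total reads, 5 with the animal as a block and 5 to 8 when each library was left out. In mouse 2 were called, against 1 with edgeR, 4 with DESeq2, 5 in 1 model, 3 with the block and 1 to 6 when each library was left out, where the 6 came without the IS library of 1019. For *Spalax* UIS against control 0 were called, against 1 with DESeq2, beside 520 of all 13909 genes. In granuloma, *Spalax* fibrosarcoma, both types together and mouse, limma called 3581, 5339, 7586 and 6870 of all genes. DESeq2 called 5383, 6358, 8290 and 8174 in the same order. Scaling by total reads gave 4496, 6830, 8711 and 9230, and the block 3108, 4886, 6925 and 6707. Totals for 1 model and for left-out libraries were not counted.

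Signs turned as follows, on the log2 scale. With total reads, *Kdr* (0.04), *Tie1* (0.22) and *Eng* (0.44) turned in granuloma, *Eng* in both tumor types (0.10), *Vwf* in mouse tumors (0.09) and *Angpt2* in mouse UIS against control (-0.20). In mouse tumors *Angpt1* turned with edgeR (-0.26) and DESeq2 (-0.29), and in mouse UIS against control *Vwf* turned with edgeR (0.07) and DESeq2 (0.12). When each library was left out, *Angpt1* ranged from -0.52 to 1.01 in *Spalax* fibrosarcoma and from -0.64 to 0.43 in mouse tumors. In tolerant against control *Angpt2* ranged from -0.01 to 0.20 and *Vwf* from -0.10 to 0.21. In mouse UIS against control *Kdr* ranged from -1.12 to 0.05, *Angpt2* from -0.16 to 0.35 and *Vwf* from -0.53 to 0.52. None of these turned values belonged to a call except *Eng* in both tumor types. Leaving out 1 library of a pair leaves a lone sample that is assumed to vary like the rest. The cause of these shifts was not tested. The block changed the *Spalax* calls of *Tek*, *Tie1* and *Eng* in both tumor types, of *Eng* in fibrosarcoma (adjusted p = 0.0581) and of *Eng* in mouse, and no other member call.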

Other observations

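The fibrosarcomas of 2230 and 2240 differed in their receptors. In 2230 *Flt1* had 245 normalised counts and *Tek* 705, while in 2240 *Flt1* had 1963 and *Tek* 207. *Kdr* relative to *Flt1* was 2.51 in 2230 and 0.576 in 2240. Macrophage markers summed to 65200 and 14400 in the same tumors.

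*Angpt2* was high in the tumors of 600 (976 normalised counts) and 2240 (769) and low in those of 976 (278) and 2230 (232). *Angpt1* followed the same order, with 670 and 299 against 186 and 103, so that *Angpt2* relative to *Angpt1* lay between 1.46 and 2.56 in all 4. *Vegfa* ranged from 379 to 5477 in these tumors.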
